A study of Mus musculus with 3 samples.

Results

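The platelet-derived growth factor (PDGF) system of 6 genes was examined for NR2F2 binding in the fetal mouse testis. These are the receptors Pdgfra and Pdgfrb and the ligands Pdgfa, Pdgfb, Pdgfc and Pdgfd. Members were all NR2F2 peaks whose nearest transcription start site (TSS) belonged to one of these genes, or whose nearer edge lay within 200 kb of a TSS of one of them. The rule found 10 of the 10069 peaks. All 10 came from the distance criterion, and 0 peaks had a PDGF gene as the gene of their nearest TSS. Pdgfrb had 4 peaks within 200 kb, Pdgfb had 3, Pdgfra had 2 and Pdgfa had 1, whereas Pdgfc and Pdgfd had 0.

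NR2F2 (COUP-TFII) is a transcription factor of the nuclear receptor family. Its binding was profiled by ChIP-seq, in which chromatin is immunoprecipitated and sequenced, with testes of CD-1 embryos at embryonic day 14.5. Whole testes were freed of the mesonephros and pooled, 30 to an experiment. The labels list no mutation or treatment for any sample. NR2F2 was precipitated in 2 independent experiments, and 1 library of chromatin without immunoprecipitation served as input. In a whole organ, a peak does not tell which cell type carried the binding. Over all peaks, the input held 73251 reads in total, ChIP replicate 1 held 426784 and ChIP replicate 2 held 364261, with medians of 7, 37 and 31 reads per peak. These are totals at peaks and not sequencing depths. Because the peaks had been called on the merged ChIP reads, a high ChIP count at a peak is a condition of its presence in the data.

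PDGFs are secreted dimers that bring receptor tyrosine kinases together at the cell surface, and the activated receptors recruit adaptors, phosphatidylinositol 3-kinase, phospholipase C gamma and the RAS pathway. PDGF-A and PDGF-C act mainly through PDGFRA, PDGF-D through PDGFRB, and PDGF-B through both receptors. In the fetal gonad, PDGFRA marks the interstitial mesenchyme and is needed for testis cord organisation and for fetal Leydig cells. PDGFRB marks pericytes and other perivascular cells in many organs.

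The sequences of 5 of these peaks are shown so that a reader can see what kind of DNA they hold. Chic2, Prkar1b and Rpl3 are the genes of the nearest TSS at the closest peak to Pdgfra, Pdgfa and Pdgfb. The peaks named after Gm6116 and Tab1 were added after their values were seen, as those with the most ChIP reads. Letters are given on the plus strand of GRCm38, the assembly of mm10, from RefSeq. Capitals mark the core hexamers AGGTCA and GGGTCA that nuclear receptors of this kind bind, or their reverse complements. Exonic bases were left out at Rpl3 and Tab1, so that the Rpl3 stretch lies before its TSS and the Tab1 stretch in an intron.
Chic2 peak near Pdgfra, chr5:75044714-75045013: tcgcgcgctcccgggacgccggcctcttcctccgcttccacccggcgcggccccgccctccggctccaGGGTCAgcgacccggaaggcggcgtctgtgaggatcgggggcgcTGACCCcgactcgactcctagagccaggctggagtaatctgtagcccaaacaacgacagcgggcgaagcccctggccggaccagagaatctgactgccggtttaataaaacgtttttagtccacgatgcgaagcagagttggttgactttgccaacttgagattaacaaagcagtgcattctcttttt
Gm6116 peak near Pdgfra, chr5:74974375-74974674: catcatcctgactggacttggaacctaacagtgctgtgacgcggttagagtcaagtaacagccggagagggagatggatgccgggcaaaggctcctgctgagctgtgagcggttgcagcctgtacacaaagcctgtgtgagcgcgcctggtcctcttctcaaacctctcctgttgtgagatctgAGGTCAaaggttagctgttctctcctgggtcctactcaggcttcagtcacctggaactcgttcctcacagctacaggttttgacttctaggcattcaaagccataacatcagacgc
Prkar1b peak near Pdgfa, chr5:139174650-139174949: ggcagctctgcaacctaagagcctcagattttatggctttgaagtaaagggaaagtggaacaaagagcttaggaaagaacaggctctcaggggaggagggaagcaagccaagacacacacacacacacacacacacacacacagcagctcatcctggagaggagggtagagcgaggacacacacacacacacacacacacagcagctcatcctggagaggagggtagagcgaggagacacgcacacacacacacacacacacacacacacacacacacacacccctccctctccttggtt
Rpl3 peak near Pdgfb, chr15:80083407-80083537: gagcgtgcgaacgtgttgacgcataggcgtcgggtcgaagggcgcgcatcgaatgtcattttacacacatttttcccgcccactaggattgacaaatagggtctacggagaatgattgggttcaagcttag
Tab1 peak near Pdgfb, chr15:80133189-80133444: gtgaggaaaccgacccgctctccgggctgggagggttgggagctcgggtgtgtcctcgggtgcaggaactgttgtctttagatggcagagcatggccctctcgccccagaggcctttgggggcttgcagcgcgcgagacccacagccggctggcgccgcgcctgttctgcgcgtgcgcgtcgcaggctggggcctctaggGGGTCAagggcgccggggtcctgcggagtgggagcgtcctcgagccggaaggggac

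The Chic2 sequence holds 2 core hexamers, centred 79 and 35 bp to the left of the peak centre. The Gm6116 sequence holds 1, 37 bp to the right of the centre. The Tab1 sequence holds 1, 97 bp to the right of the centre. The Prkar1b sequence holds none and consists in large part of CA dinucleotide repeats, the longest with 20 units. Runs of at least 10 such units occurred in 152 of 10064 placed peaks (1.51%), and among the 10 PDGF peaks in this one alone.

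The first question was whether NR2F2 peaks lay at the PDGF genes themselves. No peak overlapped a TSS or any part of the body of the 6 genes, and 0 peaks lay within 50 kb of any of their TSSs. The nearest peak was 68.3 kb from Pdgfb, 81.6 kb from Pdgfrb, 107.2 kb from Pdgfra and 179.7 kb from Pdgfa. For Pdgfc and Pdgfd the nearest peak was 1037.3 kb and 1372.6 kb away, so that neither gene had a peak within 500 kb. These 2 closest peaks were at Gucy1b1 (chr3:82073677-82073976, 735 bp from its TSS, with 5 input reads and 36 and 38 ChIP reads) and at Gria4 (chr9:4795594-4795893, 341 bp from its TSS, with 13, 33 and 25 reads). The genes form an order in distance only, and a distance has no replicate error.

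**Figure D1:**
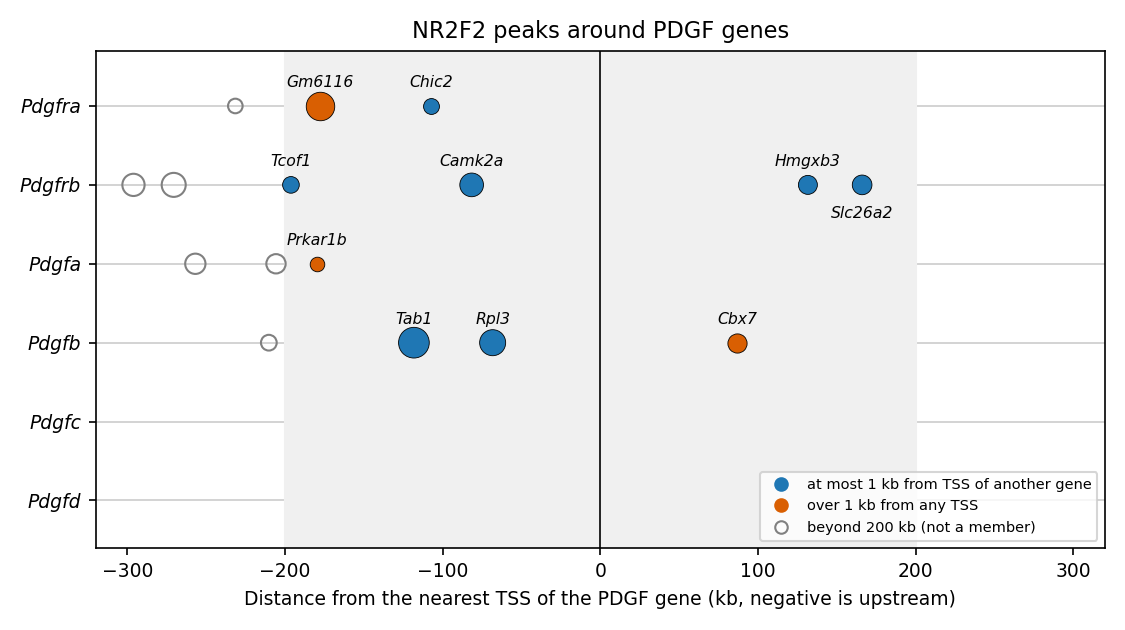
Position of the NR2F2 peaks around each PDGF gene, as distance in kb from the nearest TSS of the gene (negative is upstream), with the area of each circle proportional to the mean ChIP count and the name of the gene with the nearest TSS beside it. Blue circles lie within 1 kb of a TSS and orange ones further away, the grey band covers 200 kb on either side, open circles are peaks beyond it, and no circle lies within 50 kb of the centre line or on the rows of Pdgfc and Pdgfd.

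Among 26180 curated genes, 8068 (30.8%) were the gene of the nearest TSS for at least 1 peak, and 80.7% had a peak within 200 kb. The median distance from a gene to its nearest peak was 39.0 kb, which is shorter than for all 6 PDGF genes. A closer peak than that of Pdgfb was found for 60.9% of genes, and the same share was 64.6% for Pdgfrb, 69.9% for Pdgfra and 79.0% for Pdgfa. Pdgfc and Pdgfd stood further out, with 96.3% and 97.5% of genes closer to a peak. The median gene had 3 peaks within 200 kb. The 4 peaks of Pdgfrb were thus above that median, the 3 of Pdgfb at it, and Pdgfra and Pdgfa below it. Of all genes, 19.3% had 0 peaks in this window, as Pdgfc and Pdgfd did. The share of 0 in 6 against 30.8% of genes is given as a description and was not tested. The curated genes include non-coding ones. Among protein-coding genes alone, 33.2% had the nearest TSS of a peak, 81.4% had a peak within 200 kb, and the median distance was 35.45 kb. The share of these with a closer peak ran from 62.3% for Pdgfb to 97.6% for Pdgfd.

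**Figure D2:**
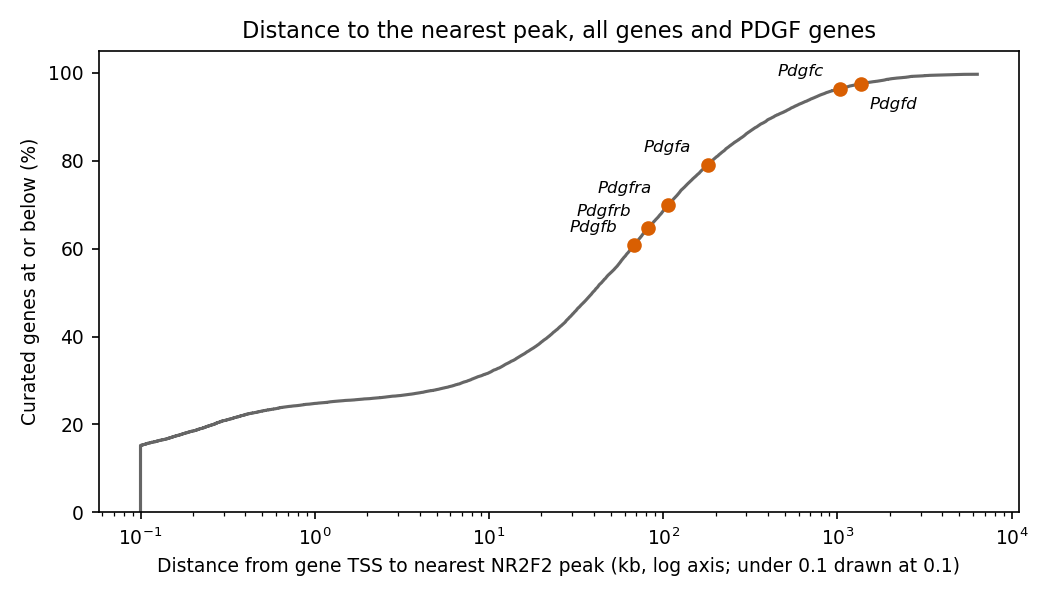
Cumulative share of the 26180 curated genes (vertical axis, percent) by the distance from a TSS to the nearest NR2F2 peak (horizontal axis, kb, log scale, distances under 0.1 kb drawn at 0.1). The orange points are the 6 PDGF genes, all to the right of the median gene at 39.0 kb, with Pdgfc and Pdgfd furthest, at 1037.3 kb and 1372.6 kb.

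Neighbouring genes differed in number between these loci. Within 200 kb of a TSS, Pdgfb had 13 other genes with a TSS and Pdgfrb had 12, against 4 for Pdgfra, 3 for Pdgfa and 1 each for Pdgfc and Pdgfd. The genes with the most neighbours were those with the most peaks. The part of gene density in the number of peaks was not tested.

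Pdgfra (gene identifier 18595, chr5:75152251-75198206, plus strand) encodes the receptor that marks interstitial cells, and both of its peaks lay upstream. The closer one (chr5:75044714-75045013), 107238 bp from the nearest Pdgfra TSS, was outside any gene and 73 bp from the TSS of Chic2 (74277). It had 3 input reads, 28 reads in ChIP replicate 1 and 30 in ChIP replicate 2. This was a weak peak, with a mean of 29.0 ± 1.41 ChIP reads (SD, n = 2) against a median of 34.0 over all peaks. The other (chr5:74974375-74974674), 177577 bp from Pdgfra, lay outside any gene and 25181 bp from the TSS of the predicted gene Gm6116. It had 12 input reads and 94 and 93 ChIP reads. Its mean ChIP count of 93.5 ± 0.707 (SD, n = 2) was higher than that of 97.4% of all peaks, and it ranked 58 among the 3309 peaks over 10 kb from any TSS. For both peaks the same 4 genes, Gsx2, Chic2, Gm19583 and Gm6116, had a nearer TSS than Pdgfra.

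Pdgfrb (18596, chr18:61045150-61085067, plus strand) encodes the receptor of pericytes and had 2 peaks upstream and 2 downstream. All 4 were at a TSS of another gene, overlapping it or within 96 bp. The closest (chr18:60963266-60963565), 81585 bp upstream, overlapped a TSS of Camk2a (12322), a calcium/calmodulin-dependent protein kinase, inside an intron of a longer Camk2a transcript. It had 7 input reads and 77 and 52 ChIP reads, which is 11.0 times the input count in replicate 1 and 7.43 times in replicate 2. The peak at Hmgxb3 (106894, chr18:61176810-61177109), 131660 bp downstream, overlapped its TSS and had 4 input reads and 49 and 34 ChIP reads. The peak at Slc26a2 (13521, chr18:61211201-61211500), a sulphate transporter gene, was 166051 bp downstream and 96 bp from the Slc26a2 TSS, in an intron, with 8 input reads and 41 and 48 ChIP reads. The peak at Tcof1 (21453, chr18:60848657-60848956), which encodes treacle, a factor in ribosomal RNA synthesis, was 196194 bp upstream, 8 bp from the TSS and with its midpoint in a coding exon. It had 11 input reads and 37 and 27 ChIP reads, the lowest ChIP to input ratio of the 10 peaks. Between 5 and 12 other genes had a TSS nearer to these peaks than Pdgfrb did, and Csf1r, a receptor gene related to Pdgfrb, was among them for both downstream peaks.

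Among the ligands, Pdgfa (18590, chr5:138976014-138994944, minus strand) encodes the A chain, a ligand of PDGFRA. Its single peak (chr5:139174650-139174949) lay 179706 bp upstream in an intron of Dnaaf5, and the nearest TSS, at 23947 bp, was that of Prkar1b (a regulatory subunit of protein kinase A). It had 3 input reads and 25 and 24 ChIP reads, which made it the weakest of the 10 peaks. This is the peak whose sequence is rich in CA repeats, and the part of the repeat in its counts was not tested. In total, 7 genes had a TSS nearer to it than that of Pdgfa.

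Pdgfb (18591, chr15:79995865-80014977, minus strand) encodes the B chain, which is known as the endothelial signal for pericytes. The closest peak (chr15:80083238-80083537), 68261 bp upstream, overlapped the TSS of the ribosomal protein gene Rpl3 (27367) with its midpoint in the 5' UTR. It had 13 input reads and 74 and 82 ChIP reads. A second upstream peak (chr15:80133145-80133444), at 118168 bp, overlapped the TSS of Tab1 (66513), which encodes an activator of the kinase TAK1. It had 9 input reads and 117 and 100 ChIP reads, the most ChIP reads of the 10 peaks, and its mean of 108.5 ± 12 (SD, n = 2) was higher than that of 98.5% of all peaks. The only downstream peak (chr15:79927793-79928092), at 86885 bp, was in an intron of Cbx7, a Polycomb gene, 4554 bp from the TSS. It had 7 input reads and 52 and 33 ChIP reads.

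Pdgfc (54635, chr3:81036416-81214040, plus strand) and Pdgfd (71785, chr9:6168486-6378845, plus strand) encode the C and D chains, which are secreted in a latent form and cut to become active. They are the longest of the 6 genes, at 177.6 kb and 210.4 kb, and no peak lay in them. The files hold counts at called peaks only, so that signal below the threshold of the peak caller was not analysed here and binding at these genes is not shown to be absent.

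**Figure D3:**
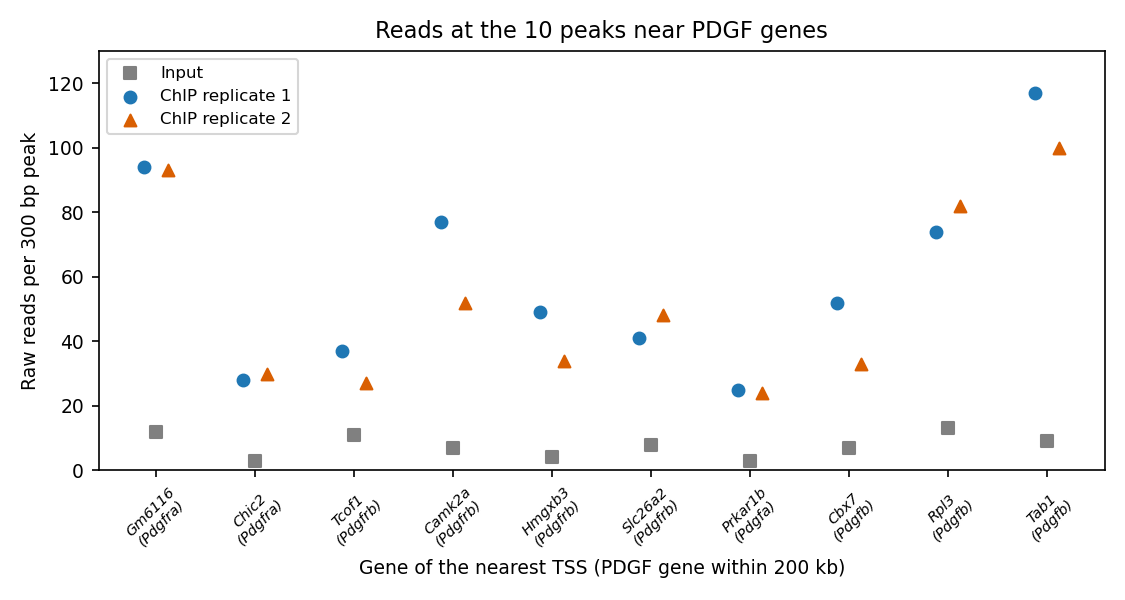
Raw reads per 300 bp peak (vertical axis) at the 10 peaks, named by the gene of the nearest TSS with the PDGF gene in brackets, for the input (squares), ChIP replicate 1 (circles) and ChIP replicate 2 (triangles). Both ChIP libraries lie above the input at all 10 peaks, and the Tab1 and Gm6116 peaks have the most ChIP reads.

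By position, 7 of the 10 peaks were within 1 kb of a TSS of another gene and 4 of these overlapped it, whereas 58.0% of all placed peaks were within 1 kb of a TSS and 24.2% overlapped one. The remaining 3 were the Gm6116, Prkar1b and Cbx7 peaks. The median of the mean ChIP counts was 44.5 reads at the 7 promoter peaks and 42.5 at the 3 others, against 36.5 and 30.5 in the same classes over all peaks. At the edge of the 200 kb window, the outermost peak inside was that at Tcof1. The first ones outside were at the TSS of Sun1, 205687 bp from Pdgfa, with 4 input reads and 53 and 33 ChIP reads, and 8583 bp from Mief1, 210221 bp from Pdgfb, with 4, 30 and 27 reads.

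The next question was whether ChIP reads exceeded input reads at these peaks. Both ChIP counts were above the input count at 10 of 10 peaks, as they were at 10059 of all 10069. On the assumption of equal depth, 9 of the 10 were above input at a Benjamini-Hochberg adjusted p under 0.05 in the quasi-likelihood test of edgeR, against 80.7% of all peaks. This share is near the background and is not a result about the PDGF genes. The exception was the Tcof1 peak, with a log2 ratio of 1.53 ± 0.40 (SE, edgeR adjusted p = 0.0518). All 10 passed with a robust fit (97.5% of all peaks), with the ChIP replicates scaled to each other (97.9%), and with the ChIP libraries 2 times shallower than the input (97.9%). The depths are not known. If both ChIP libraries were 2 times deeper than the input, 0 of the 10 passed, as did 0 of all 10069 peaks (0%). At an unadjusted p under 0.05 there were 8 of the 10, against 39% of all peaks. The SEs at equal depth were small for such low input counts. At the Chic2 peak, with 3 input reads, the SE was 0.35 at equal depth and 0.79 relative to the typical peak. How far the equal-depth SEs hold the counting error of the input was not tested.

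A comparison of each peak with the typical peak does not need the depths. The counts were scaled by TMM (trimmed mean of M values) over all peaks, so that a log2 ratio of 0 stands for the typical ChIP to input ratio. By edgeR's quasi-likelihood test, 0 of the 10 peaks were above the typical peak at an adjusted p under 0.05, against 1.53% of all peaks, and 0 were below it, against 0.0497%. At an unadjusted p under 0.05, 1 peak, at Tab1, was above (7.89% of all peaks) and 0 were below (2.55% of all peaks). DESeq2 called 0, with 0 at an unadjusted p under 0.05, and gave 7 of the 10 no adjusted p. For these DESeq2 counts the shares of all peaks were not computed.

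The Tab1 peak had a log2 ratio of 1.27 ± 0.44 (SE, edgeR adjusted p = 0.127), the highest of the 10. The 4 peaks closest to each gene had values from 0.27 to 0.95. The value was 0.95 ± 0.79 at Chic2 near Pdgfra (edgeR adjusted p = 0.791), 0.88 ± 0.54 at Camk2a near Pdgfrb (0.622), 0.71 ± 0.82 at Prkar1b near Pdgfa (0.880) and 0.27 ± 0.43 at Rpl3 near Pdgfb (0.918). Without ChIP replicate 1 the Rpl3 value was 0.45, and without ChIP replicate 2 it was 0.08. Each of the 4 closest peaks had a 95% interval that included 0, and the differences between them were not tested. Of the others, Gm6116 stood at 0.65 ± 0.42 and Hmgxb3 at 1.05 ± 0.68. The Cbx7 peak was at 0.28 ± 0.58 (0.029 without ChIP replicate 1 and 0.46 without ChIP replicate 2), the Slc26a2 peak at 0.16 ± 0.55 (-0.071 without ChIP replicate 2), and the Tcof1 peak, the single negative value, at -0.78 ± 0.52.

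As a list, 9 of the 10 values were above 0, against 51.2% of all peaks, and their median was 0.68, against 0.02. All 10 peaks had another gene at the nearest TSS, so that this describes the peaks and is not a result about the PDGF genes. The values were not set against peaks of the same position class. From raw ratios with 0.5 added to each count, the median of the 10 peaks exceeded the median of all peaks by 0.54 in ChIP replicate 1 and by 0.67 in replicate 2. The mean of both differences was 0.61 ± 0.09 (SD, n = 2) on the log2 scale. Both replicates were set against the same input, so that this SD holds no input error. The input counts were low. At the Chic2 and Prkar1b peaks its 3 reads have an exact Poisson 95% interval of 0.619 to 8.77, which covers counting error only, and at the Rpl3 peak its 13 reads have one of 6.92 to 22.2.

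**Figure D4:**
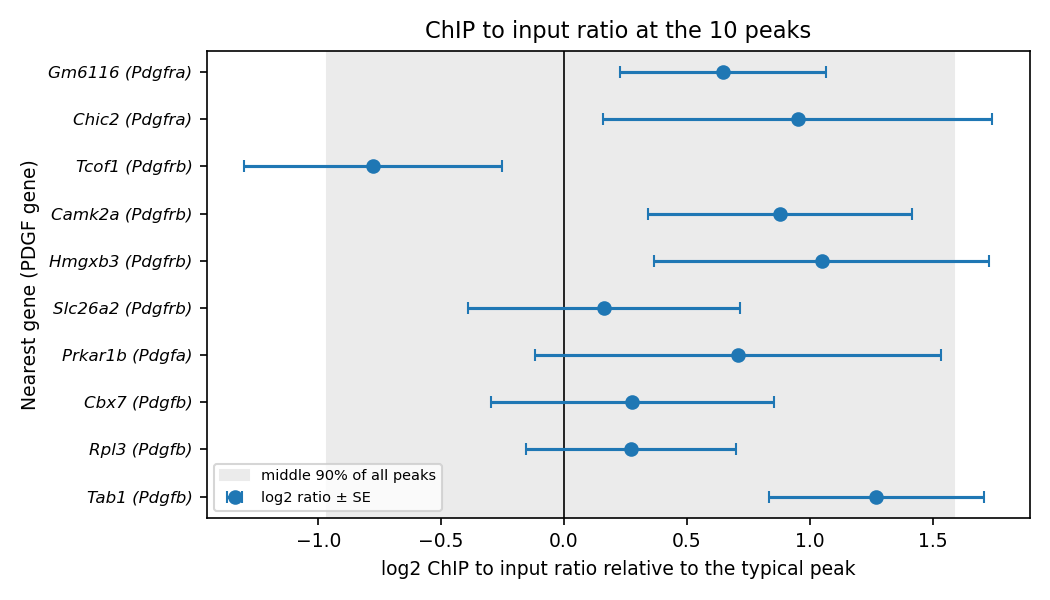
Log2 ChIP to input ratio relative to the typical peak (horizontal axis) for the 10 peaks, with points and bars for the edgeR value and its SE, and a grey band for the middle 90% of all peaks (-0.97 to 1.59). All 10 points lie within the band, from -0.78 at Tcof1 to 1.27 at Tab1.

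The ChIP replicates were compared at each peak by an exact two-sided binomial test. By this test 0 of the 10 peaks differed at an adjusted p under 0.05, against 0.0993% of all peaks, and 0 at an unadjusted p under 0.05, against 8.83%. The lowest unadjusted value was p = 0.108 (exact binomial test), at the Rpl3 peak. Replicate 1, which had 54.0% of the ChIP reads at peaks, was the higher at 7 of the 10. The test treats reads as independent, so that it covers counting error only, and it compares libraries and not conditions.

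The sequences were then searched for letters that NR2F2 is known to recognise, on both strands of the whole 300 bp. A core hexamer, AGGTCA or GGGTCA, was found in 5 of the 10 peaks (50%), against 58.9% of all placed peaks. These were the Gm6116, Chic2, Camk2a, Slc26a2 and Tab1 peaks, with 2 matches at Chic2 and 1 at each of the others. Among all peaks, 48.2% of those within 1 kb of a TSS and 73.7% of those further away held a core hexamer. The extended forms AGAGGTCA and AGGGGTCA, which contain a core hexamer, were in 0 of the 10 peaks and in 10.5% of all peaks. A pair of core hexamers in the same direction with 1 base between them was in 0 of the 10 and in 2.37% of all. Only exact copies were counted. At Gm6116 the core hexamer is followed, after 1 base, by AGGTTA, which differs from AGGTCA in 1 letter. Such near copies were not searched for in the other peaks. GC content ran from 53.3% at Gm6116 and Prkar1b to 73.0% at Hmgxb3, around the 60.7% that is the median of all peaks. The number of CpG dinucleotides ran from 2 at Camk2a to 42 at Hmgxb3, with a median of 18 over all peaks. A match is a description of the letters and not a site.

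RefSeq promoter windows, from 250 bases before to 50 after a start, were at hand for Pdgfra, Pdgfa, Pdgfc and Pdgfd. Of these 5 windows 0 held a core hexamer, against 27.5% of the 32851 windows searched. Pdgfra has 3 curated TSSs but only a single window was at hand for it. The Pdgfrb and Pdgfb windows were not used here.

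The other genes of PDGF signalling were taken from a list of 73 genes in 9 groups by role, with peaks assigned by nearest TSS only. Of these, 46 (63.0%) had the nearest TSS of at least 1 peak, 70 peaks together. By this measure the PDGF ligands and receptors had 0 of 6, and all curated genes 30.8%. The measure sets no limit on distance, and the peak of Nck2 lay 108080 bp from its TSS. Within 200 kb, 70 of the 73 genes had a peak, against 4 of the 6 PDGF genes and 80.7% of curated genes. A peak lay within 1 kb of a TSS of 36 of the 73 genes, whichever gene was nearest to that peak. The share of all curated genes at 1 kb was not computed, and within the wider 10 kb it was 31.8%. The groups differ in size and in the genes they hold, and the differences between them were not tested. At equal depth, edgeR placed 57 of the 70 peaks above input, against 80.7% of all peaks, and 0 below. Relative to the typical peak, it placed 1 above and 0 below, near the 1.53% of all peaks. The median log2 ratio of the 70 peaks was -0.01.

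Close to the ligands, the proteins that cut or bind PDGFs had 5 of 8 genes with a peak. The strongest was 13641 bp from the TSS of Sparc (20692, chr11:55406140-55406439), which encodes a matrix protein that binds PDGF-B, with 14 input reads and 81 and 68 ChIP reads. Plau, which encodes the protease urokinase that can activate PDGF-D, was nearest to 2 peaks. Among partners of the receptors, 3 of 4 genes had a peak. The strongest was at Lrp1 (16971, chr10:127621690-127621989), an endocytic receptor, with 9 input reads and 76 and 53 ChIP reads.

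Among the adaptors that dock on the activated receptors, 6 of 8 genes had a peak. The peak over the TSS of Shc1 (20416, chr3:89418461-89418760) had 5 input reads and 111 and 91 ChIP reads, the most of the 70. Among the PDGF peaks only that at Tab1 had a higher mean ChIP count. The Shc1 peak was the one pathway peak above the typical peak, with a log2 ratio of 2.01 ± 0.53 (SE, edgeR adjusted p = 0.0142), higher than input in both ChIP libraries. It did not pass with DESeq2 size factors in edgeR (adjusted p = 0.149) or with DESeq2 (adjusted p = 0.181). Over all alternatives its adjusted p ran from 0.00713 to 0.181. Gab1, Nck1, Nck2, Crkl and Shb also had 1 peak each.

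Among the enzymes that bind the receptors, 5 of 10 genes had a peak, the strongest at Plcg1 (18803, chr2:160730772-160731071), which encodes phospholipase C gamma 1, with 9, 52 and 40 reads in input, replicate 1 and replicate 2. In the RAS and MAPK group 5 of 11 genes were nearest to a total of 7 peaks, and in the AKT group 3 of 4 were nearest to 5. The negative regulators had a peak at 6 of 8 genes, the strongest at Cblb (208650, chr16:52031688-52031987), a ubiquitin ligase, with 11, 62 and 58 reads. The feedback inhibitors Spry1 and Spry2 had 3 peaks each.

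Of the transcription factors that respond to PDGF, 7 of 9 had a peak, the strongest 909 bp from the TSS of Jun (16476, chr4:95051014-95051313), with 14, 90 and 73 reads. In the related PDGF and VEGF family, 6 of 11 genes had a peak. The strongest of these, at Vegfc (22341, chr8:54077761-54078060), had 6, 25 and 34 reads, and the median of the mean ChIP counts in this group was 26.5, the lowest of the 9 groups. Kit, a receptor gene related to Pdgfra and on the same chromosome, was nearest to 2 peaks, and Csf1r, beside Pdgfrb, to 0.

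**Figure D5:**
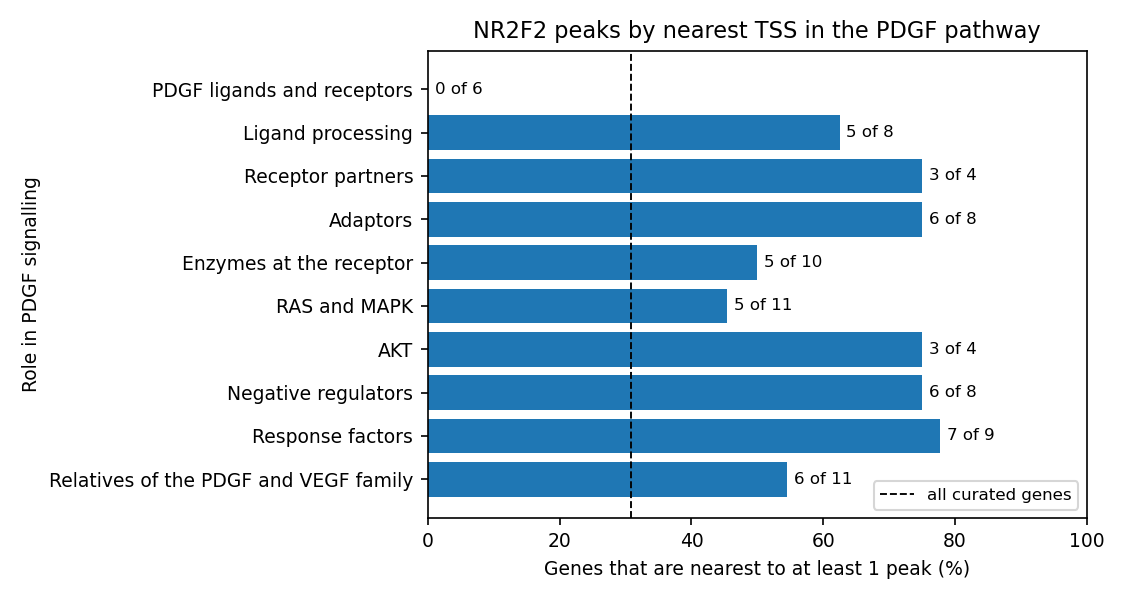
Share of genes (horizontal axis, percent) that were the gene of the nearest TSS for at least 1 NR2F2 peak, for the PDGF ligands and receptors and for 9 groups of pathway genes by role, with the counts beside the bars. The dashed line is the share among all curated genes (30.8%), and the PDGF ligands and receptors are the one group at 0.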

How the data were processed

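The deposited files hold raw read counts at 300 bp peaks, 1 file per library. Per the study's methods, the authors trimmed single-end reads with Trim Galore 0.6.7, mapped them to mm10 with Bowtie 2, removed duplicates with Picard 1.110, merged the ChIP replicates before peak calling with HOMER 4.11.1, resized peaks to 300 bp and removed blacklisted regions. The rule that assigned reads to peaks is not known here. Totals at peaks ran from 73251 to 426784 reads.

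Nearest TSSs came from 45756 curated RefSeq transcripts of GRCm38; 5 peaks on unplaced contigs had none. Counts were tested with edgeR 4.0.16 (quasi-likelihood, limma 3.58.1, R 4.3.3) over all 10069 peaks with all 3 libraries, once at equal depth and once with TMM factors; DESeq2 1.42.0 was an alternative. SEs were derived from the log2 ratio and the F statistic. The single input was assumed to vary like the ChIP libraries. The scripts were tested on simulated data. Other statistics used Python 3.11.15 and scipy 1.17.1. All member peaks were named, and of the pathway genes the strongest peak by mean ChIP count of each group and any called relative to the typical peak, with Plau, Kit, Csf1r, Spry1, Spry2 and the further adaptors named after their values were seen. Single peaks of the RAS and MAPK and AKT groups are not reported here. The genes and lists were chosen with earlier results of these data known. The only spread between libraries behind the edgeR and DESeq2 p-values is that between the ChIP replicates, as there was a single input. The exact binomial p-values cover counting error only.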

Additional observations from a re-analysis of the deposited data

How the results depend on the processing

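The number of peaks near PDGF genes followed the window. It was 10 within 200 kb, 0 within 50 kb, 3 within 100 kb and 30 within 500 kb, and 0 by nearest TSS alone. It was 10 with distances from the peak midpoint, with protein-coding transcripts only and with GENCODE transcripts, the last chosen after seeing the data. If both ChIP libraries were 2 times deeper than the input, the peaks above input fell from 9 to 0 among the PDGF peaks and from 57 to 0 among the pathway peaks (unadjusted p under 0.05 at 8 and 23, against 39% of all peaks). With ChIP libraries 2 times shallower these counts were 10 and 69, with a robust fit 10 and 67, with the ChIP replicates scaled to each other 10 and 67, and with DESeq2 9 and 44. The share of all peaks above input under DESeq2 was not computed, so that its counts have no background here. The count of 0 PDGF peaks above or below the typical peak held under all 6 alternatives, but at least 5 input counts left only 7 of these peaks to test and at least 10 left 3, without the Tab1 peak. The pathway count above it was 1 and became 0 under DESeq2, under its size factors in edgeR, and when 10 input counts were required. The last left 19 peaks, without the called Shc1 peak, which had 5 input reads. Its log2 ratio was 2.01 in the main fit, 1.993 under DESeq2 and 1.987 under the DESeq2 size factors. The cause of the lost call in these 2 fits was not tested. The median log2 ratio of the PDGF peaks moved from 0.61 to 0.45 with 5 added to each count, since the larger number shrinks ratios of low counts, and ran from 0.54 to 0.67 when each ChIP replicate was left out. It could not be given for peaks by nearest TSS, of which there were none. Some log2 ratios near 0 relative to the typical peak changed sign. Leaving out either ChIP replicate gave -0.071 to 0.376 at Slc26a2, -0.055 to 0.101 at Plcg1 and -0.367 to 0.29 at Vegfc. Without TMM, Sparc gave -0.021 and Plcg1 -0.081. With at least 5 input counts, Vegfc gave 0.12. The other PDGF peaks kept their sign. Counts of calls without a ChIP replicate were not run, because 1 ChIP library against 1 input leaves no residual degrees of freedom. No paired analysis was possible because 1 input library served both ChIP replicates.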
